A study of Mus musculus with 6 samples.

Results

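Transcript levels of Tbx21, Zeb2, Cxcr3, Ifngr1, Ifngr2, Eomes, Tox, Lag3 and Ndrg1 were examined in sorted splenic follicular B cells, the recirculating mature B cells of the spleen. These 9 genes, of 24346 in the tables, were found by symbol. They encode T-bet, Zeb2 and factors tied to the T-bet-positive B cell state. The mice were 8 weeks of age, and the sort took B220-positive cells that lacked CD93, with low CD21 and high CD23. There were 3 libraries from B6 controls, called WT, and 3 from mice homozygous for G9gl, a knock-in of heavy and light chains that encode the germline precursor of a lupus autoantibody against DNA. Whether each library is from its own mouse is not stated in the labels, so the p-values reflect the spread between libraries, which may be technical. The strain background of the knock-in mice is not given in the sources used here. The design text describes the G9gl B cells as anergic, a state of weak response to self-antigen.

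T-bet is a T-box transcription factor that directs type 1 responses in T cells and NK cells, and in B cells it is induced by interferon-gamma together with antigen receptor and Toll-like receptor signals. Zeb2 is a zinc finger repressor that binds E-box sequences and takes part in the formation of age-associated or atypical B cells. Such cells are known for T-bet, for the integrins CD11c and CD11b, for the chemokine receptor CXCR3 and for low CD21, and they accumulate with age, infection and autoimmunity.

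Tbx21, Zeb2, Cxcr3, Lag3 and Ndrg1 were higher in every G9gl library than in any WT library, while both interferon-gamma receptor genes were at similar levels and Eomes and Tox were close to 0. The 9 genes were chosen with these differences between genotypes known, so their values are a description and no p-value is given for them. In bulk RNA, more cells that express a gene and more RNA per cell cannot be told apart. Levels are FPKM, transcript fragments per kilobase relative to all mapped fragments of a library, given as mean ± SD over 3 libraries. Differences are log2 fold changes of FPKM + 1 with the standard error (SE) of a limma fit over 10122 genes. A gene was tested where 3 or more of the 6 libraries reached 1 FPKM.

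Tbx21 (chromosome 11, 97098071 to 97115331 in mm10) had 3.25, 2.87 and 1.25 FPKM in WT replicates 1 to 3 and 14.4, 20.8 and 17.5 FPKM in G9gl replicates 1 to 3. The genotypes did not overlap, and the lowest G9gl library was 4.42 times the highest WT library. The mean went from 2.46 ± 1.06 to 17.5 ± 3.23 FPKM, a log2 fold change of 2.46 ± 0.23 (SE). In WT the level of Tbx21 stood above 10.9% of tested genes, and in G9gl above 53.4%.

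Zeb2 (chromosome 2, 44983632 to 45117395) had 5.44, 4.41 and 5.37 FPKM in the WT libraries and 15.3, 12.3 and 11.9 FPKM in the G9gl libraries. The groups again stood apart, but replicate 1 was the highest G9gl library for Zeb2 and the lowest for Tbx21. The Zeb2 mean was 5.07 ± 0.578 FPKM in WT and 13.2 ± 1.86 FPKM in G9gl, a log2 fold change of 1.22 ± 0.12 (SE). Zeb2os, a noncoding gene on the opposite strand, shares up to 181 bases of exon with Zeb2. It rose as well, from 1.29 ± 0.546 to 3.36 ± 0.114 FPKM (limma adjusted p 0.0051). The libraries keep no strand information, so fragments from the shared bases cannot be assigned to either gene. Macrophages express Zeb2 too, and macrophage markers other than Ly6c2 were also higher in G9gl, at sums of 52.7 to 61.4 FPKM against 21.8 to 28.8 FPKM in WT, and highest in G9gl replicate 1; their part in the Zeb2 level was not tested.

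Cxcr3 (chromosome X, 101731535 to 101734269), the receptor for the interferon-induced chemokines CXCL9 and CXCL10 and a known T-bet target, had 0.721, 0.476 and 0.355 FPKM in WT and 3.37, 4.95 and 5.11 FPKM in G9gl. All WT libraries were below 1 FPKM and all G9gl libraries at 3.37 or more, with replicate 1 the lowest G9gl library. The log2 fold change was 1.84 ± 0.17 (SE). Because Cxcr3 and Lag3 entered the fit through their G9gl values alone, they could enter it only with a difference between the groups.

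**Figure D1:**
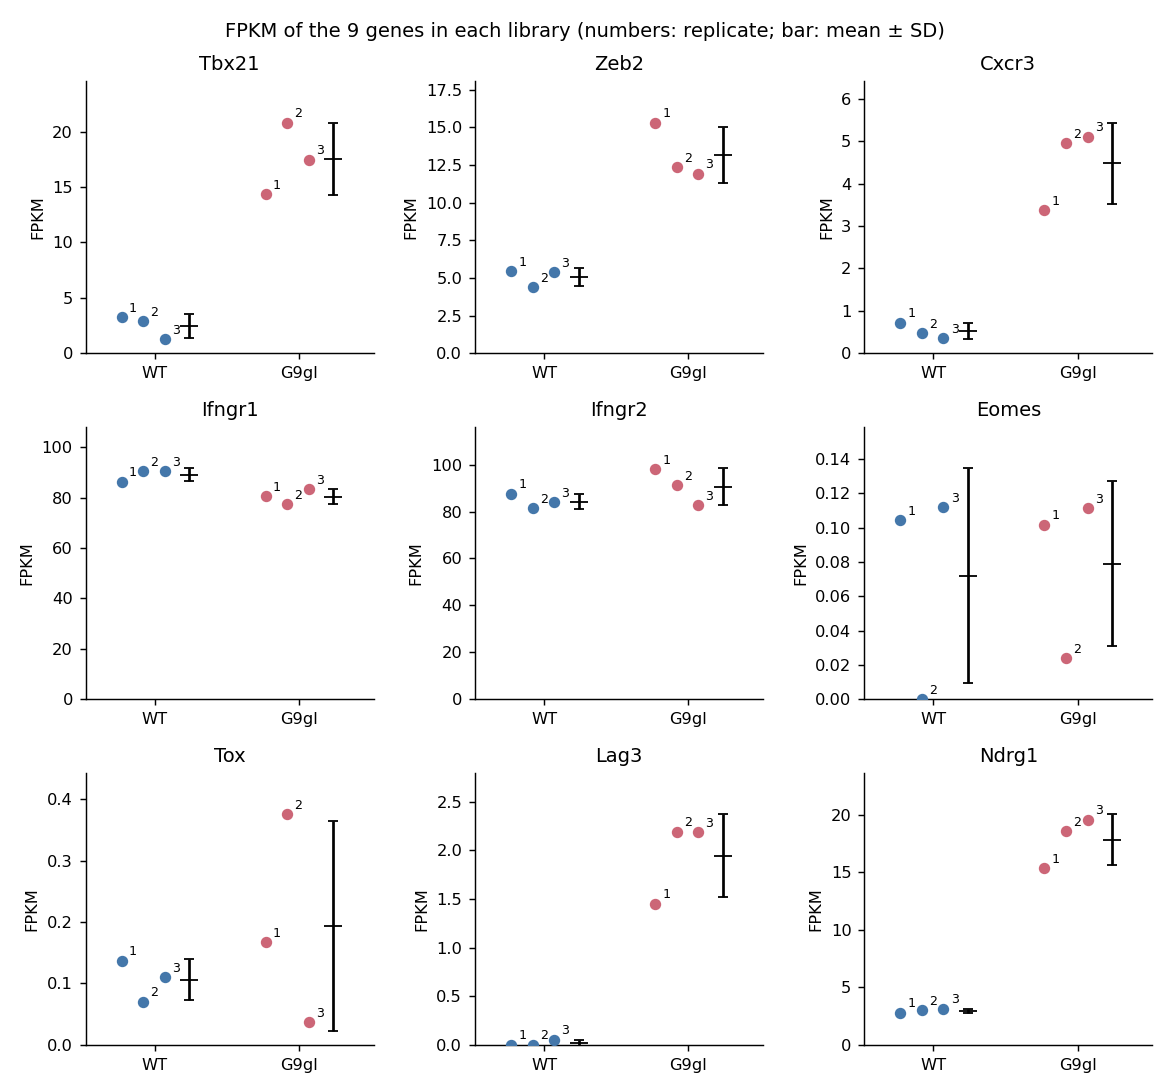
FPKM of each of the 9 genes in the 3 WT and 3 G9gl libraries, with replicate numbers beside the points and the mean ± SD as a black bar. Each panel has its own scale from 0. For Tbx21, Zeb2, Cxcr3, Lag3 and Ndrg1 every G9gl point lies above every WT point, and for Ifngr2, Eomes and Tox the groups overlap.

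Promoter sequence of Tbx21, Zeb2 and Cxcr3 is shown because their levels were higher together in G9gl. It comes from RefSeq on GRCm38.p6, the assembly that mm10 denotes. The 250 bases before the start were searched on both strands for AGGTGTNA (T-box site), TTCNNNGAA (gamma-activated site, bound by STAT dimers), CAGGTG (an E-box of the kind that Zeb2 binds), TGANTCA (AP-1) and an NF-kB motif. Of the 9 genes, 6 matched an entry and 3 (Tox, Lag3 and Ndrg1) did not. Capitals mark the match, and each sequence runs 5′ to 3′ on the strand of the gene, which is the minus strand for all 3. Tbx21 is shown for its whole stretch, chr11:97115332-97115581. Cxcr3 is shown for 30 bases around its match, chrX:101734246-101734275, and Zeb2 for 30 bases at start 2 of 4 listed, chr2:45113407-45113436.
Tbx21: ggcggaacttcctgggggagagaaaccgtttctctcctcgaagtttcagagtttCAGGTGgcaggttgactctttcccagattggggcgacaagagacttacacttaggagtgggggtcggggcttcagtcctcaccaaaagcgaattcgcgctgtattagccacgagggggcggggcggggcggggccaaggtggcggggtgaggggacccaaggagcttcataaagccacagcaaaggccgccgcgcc
Cxcr3: tctaagtgtattCACCTGaccacaggcgtg
Zeb2: agttctccagTTCTGTGAAtggtgtgcacc

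Tbx21 held CAGGTG 191 to 196 bases before its start and Cxcr3 held it on the other strand 111 to 116 bases before its RefSeq start. These were the only 2 of the 6 genes with this E-box, which 17.2% of all 32851 stretches of that length hold. The Cxcr3 match lies inside the gene as placed above, which ends at 101734269, because the RefSeq start lies further in. The stretches before Zeb2 starts 2, 3 and 4 likewise lie inside the Zeb2 gene as placed above. Zeb2 held TTCNNNGAA at starts 2 and 3, whose stretches overlap, against 7.02% of all stretches, and TGANTCA at 2 places before start 4, against 6.75%. No AGGTGTNA was in these windows for any of the 6 genes, and 2.68% of all stretches hold it. Ifngr2 held the NF-kB motif, present in 1.41%, while Ifngr1 and Eomes held none of the 5 motifs. A match is a run of letters and not a measured binding site.

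Ifngr1 and Ifngr2 encode the ligand-binding and the signalling chain of the interferon-gamma receptor. They were the most abundant of the 9 genes. Ifngr1 (chromosome 10, 19591949 to 19610229) had 86.3, 90.6 and 90.6 FPKM in WT and 80.5, 77.4 and 83.4 FPKM in G9gl. All G9gl values were below all WT values, by a small margin, and the log2 fold change was -0.15 ± 0.056 (SE). Ifngr2 (chromosome 16, 91547072 to 91565623) had 87.6, 81.3 and 83.9 FPKM in WT and 98.1, 91.2 and 82.7 FPKM in G9gl. Its groups overlapped, and its log2 fold change was 0.10 ± 0.071 (SE). With values rescaled to a common total (TPM), which moved the median of all tested genes by -0.12, Ifngr1 was at -0.28 and Ifngr2 at -0.030. Ifngr1 passed the test as lower in that setting, as did 24.6% of all tested genes, and nothing is read from that call.

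Eomes (chromosome 9, 118478212 to 118486132), the T-box paralog that works beside T-bet in CD8 T cells and NK cells, did not exceed 0.112 FPKM in any library. It had 0.104, 0 and 0.112 FPKM in WT and 0.102, 0.0238 and 0.112 FPKM in G9gl, which are at most about 3.8 fragments in a library. Its levels did not part the genotypes. Of 15 other T-box genes listed, only Tbx6 and Mga were tested, and neither passed (limma adjusted p 0.42 and 0.58). The other 13 had at most 0.169 FPKM in a library, so that Tbx21 was the T-box gene with the highest mean level in G9gl, followed by Mga at 10.4 ± 0.827 FPKM.

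Tox (chromosome 4, 6686353 to 6991557), a nuclear factor of exhausted T cells, had 0.137, 0.0706 and 0.110 FPKM in WT and 0.167, 0.375 and 0.0366 FPKM in G9gl. The highest and the lowest of the 6 values were both from G9gl, and neither Tox nor Eomes was tested. Without a filter on low values the log2 fold change was 0.10 ± 0.10 (SE) for Tox and 0.010 ± 0.057 (SE) for Eomes. Among the Tox paralogs, Tox4 was at 40.1 ± 2.68 FPKM in WT against 45.7 ± 0.431 in G9gl (limma adjusted p 0.069), and Tox2 was listed at 0 in WT with 0.247, 0.345 and 0 FPKM in G9gl.

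Lag3 (chromosome 6, 124904361 to 124911705), an inhibitory receptor related to CD4, was listed at 0 in WT replicates 1 and 2 and at 0.0548 FPKM in WT replicate 3. It had 1.45, 2.19 and 2.19 FPKM in G9gl. At the estimated depth these are 0 to about 1.0 fragments in a WT library against 29.7 to 48.0 in a G9gl library. The log2 fold change was 1.52 ± 0.17 (SE) with a pseudocount of 1 and 4.12 with a pseudocount of 0.1. Fgl1, which encodes a soluble ligand of LAG-3, was listed at 0 in all 6 libraries.

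Ndrg1 (chromosome 15, 66929318 to 66969640), a cytoplasmic protein tied to T cell anergy and to the response to low oxygen, had 2.80, 2.99 and 3.15 FPKM in WT and 15.3, 18.6 and 19.6 FPKM in G9gl. The WT libraries lay close together, and the lowest G9gl library was 4.87 times the highest WT library. The log2 fold change was 2.24 ± 0.11 (SE). Its paralog Ndrg3 fell from 33.7 ± 1.33 to 27.0 ± 1.69 FPKM (limma adjusted p 0.013, 0.057 without WT replicate 2 and 0.054 without G9gl replicate 2), and Ndrg2 and Ndrg4 had mean levels of at most 0.125 FPKM.

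Of the 9 genes, 7 were tested, 5 passed the adjusted p threshold of 0.05 as higher in G9gl and 2 did not pass. Among all tested genes 11.8% passed as higher and 11.6% as lower, and with TPM values 7.21% and 24.6%. All G9gl libraries lay above all WT libraries in 20.3% of tested genes and below them in 20.5%. Since the 9 were chosen on this contrast, nothing is read from that count. By level in WT the order was Ifngr1, Ifngr2, Zeb2, Ndrg1, Tbx21, Cxcr3, Tox, Eomes and Lag3. The neighbours Ifngr1 and Ifngr2, Ndrg1 and Tbx21, Tox and Eomes, and Eomes and Lag3 had overlapping ranges. In G9gl the order was Ifngr2, Ifngr1, Ndrg1, Tbx21, Zeb2, Cxcr3, Lag3, Tox and Eomes. There the ranges of Ifngr2 and Ifngr1, of Ndrg1 and Tbx21, of Tbx21 and Zeb2, and of Tox and Eomes overlapped.

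**Figure D2:**
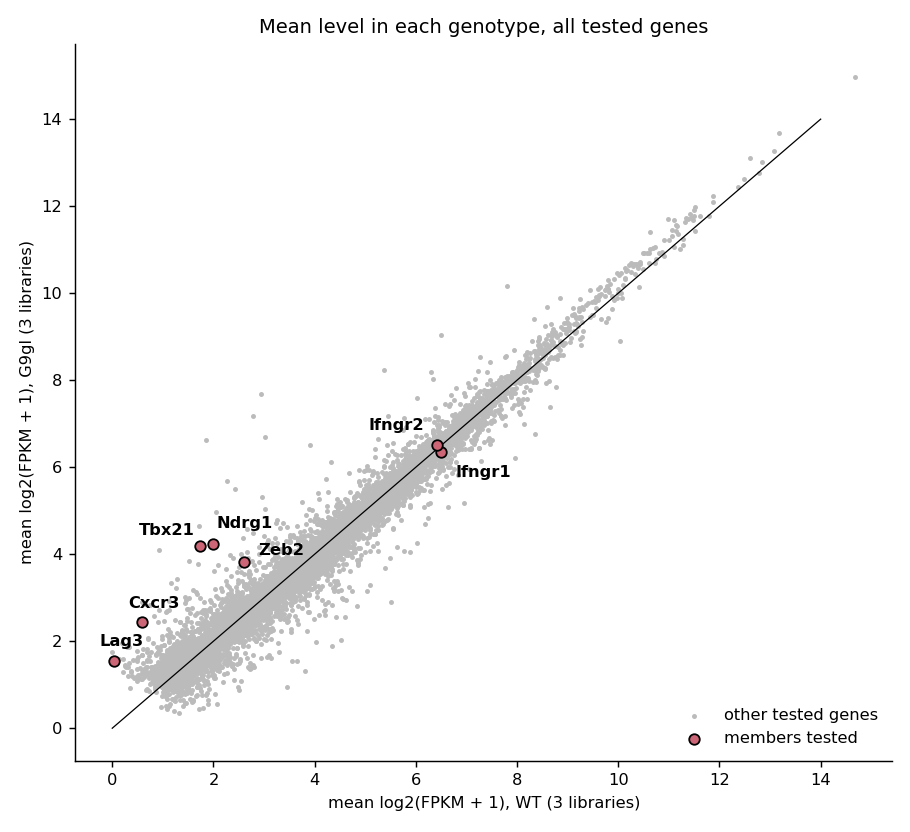
Mean log2(FPKM + 1) in WT (horizontal axis) and G9gl (vertical axis) of the 10122 tested genes in grey, with the 7 tested members in red and the line of equal levels in black. Tbx21, Ndrg1, Cxcr3, Lag3 and Zeb2 lie above the line, and Ifngr1 and Ifngr2 lie on it among abundant genes.

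Likeness to Tbx21 and Zeb2 was measured as the root mean square difference of log2(FPKM + 1) over the 6 libraries, each gene centred on its WT mean. It therefore depends largely on the size of the difference between genotypes. Nearest to Tbx21 were Ifitm3, an interferon-induced membrane protein gene, at 0.24, the splicing factor gene Zrsr1 at 0.25, the serpin gene Serpinb6b at 0.32 and Jchain, the joining chain of secreted antibodies, also at 0.32. Ndrg1 was the sixth nearest to Tbx21, at 0.37, and Cxcr3 was at 0.49. Both were chosen with their genotype difference known, so nothing is read from their places. Nearest to Zeb2 were Vav3, a guanine nucleotide exchange factor gene, at 0.069, Gca, which encodes a calcium-binding protein, at 0.11, the actin-regulating Marcksl1 at 0.13 and Batf, an AP-1 family factor, at 0.14. Vav3 had 7.70, 7.002 and 7.41 FPKM in WT and 20.8, 16.2 and 17.4 FPKM in G9gl, with replicate 1 highest, as for Zeb2. Tbx21 and Zeb2 were 0.97 apart. Jchain and Gca were below 1 FPKM in every WT library and entered the fit through G9gl alone.

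Genes described as high in T-bet-positive B cells moved in both directions. Of 34 such genes 23 were tested, of which 11 rose, 4 fell and 8 did not pass, with a median log2 fold change of 0.27 against -0.0022 over all tested genes. Of those tested, 2 (Lilrb4a and Ccl3) were below 1 FPKM in every WT library and passed the filter through G9gl alone. The integrin genes that define the state were near 0. Itgax, which encodes CD11c, ranged from 0 to 0.118 FPKM in WT and from 0.151 to 0.551 in G9gl. Itgam, which encodes CD11b, ranged from 0.401 to 0.827 and from 0.238 to 0.385 FPKM, so that Itgax was higher and Itgam lower in every G9gl library, and neither was tested.

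Fcrl5, an Fc receptor-like gene of atypical B cells, was at 11.1 ± 1.65 FPKM in WT against 11.6 ± 0.538 in G9gl (limma adjusted p 0.73). Those that rose included the inhibitory receptor gene Lilrb4a, from 0.891 ± 0.133 to 16.1 ± 0.411 FPKM, Fcer1g, the Fc receptor gamma chain, from 3.21 ± 1.10 to 30.8 ± 7.33 FPKM, and the death receptor gene Fas, from 6.53 ± 0.953 to 15.1 ± 0.996 FPKM. Cd72, an inhibitory coreceptor gene, rose from 461 ± 20.2 to 944 ± 30.5 FPKM. Those that fell included the costimulatory gene Cd86, from 16.04 ± 0.687 to 10.99 ± 1.55 FPKM, the galectin gene Lgals1 and the large scaffold gene Ahnak. Cd80, the other ligand of CD28, had at most 0.465 FPKM in a library.

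Of genes described as low in T-bet-positive B cells, or as restraining T-bet, 22 were tested. Of these 12 passed as lower, 2 as higher and 8 did not pass, with a median log2 fold change of -0.24. Over all tested genes 11.6% passed as lower and 11.8% as higher. With values rescaled to TPM, 15 of the list passed as lower, and so did 24.6% of all tested genes. Cr2, which encodes CD21, fell from 131 ± 7.20 to 61.2 ± 2.42 FPKM, and Cd24a, a surface glycoprotein gene of immature B cells, from 326 ± 20.6 to 108 ± 12.6 FPKM. Cxcr5, the receptor for the follicle chemokine CXCL13, fell 1.41-fold and Fcer2a, which encodes CD23, 1.19-fold. The sort itself selected on CD21 and CD23. Of the factors, Ets1 fell from 307 ± 31.3 to 221 ± 28.9 FPKM, Bcl6 from 63.2 ± 2.92 to 48.2 ± 1.77 FPKM and Foxo1 from 90.9 ± 4.92 to 67.4 ± 8.95 FPKM. Against this direction, Cd38, an ectoenzyme gene, rose from 154 ± 7.07 to 216 ± 5.68 FPKM. With a library left out, 8 to 13 passed as lower.

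**Figure D3:**
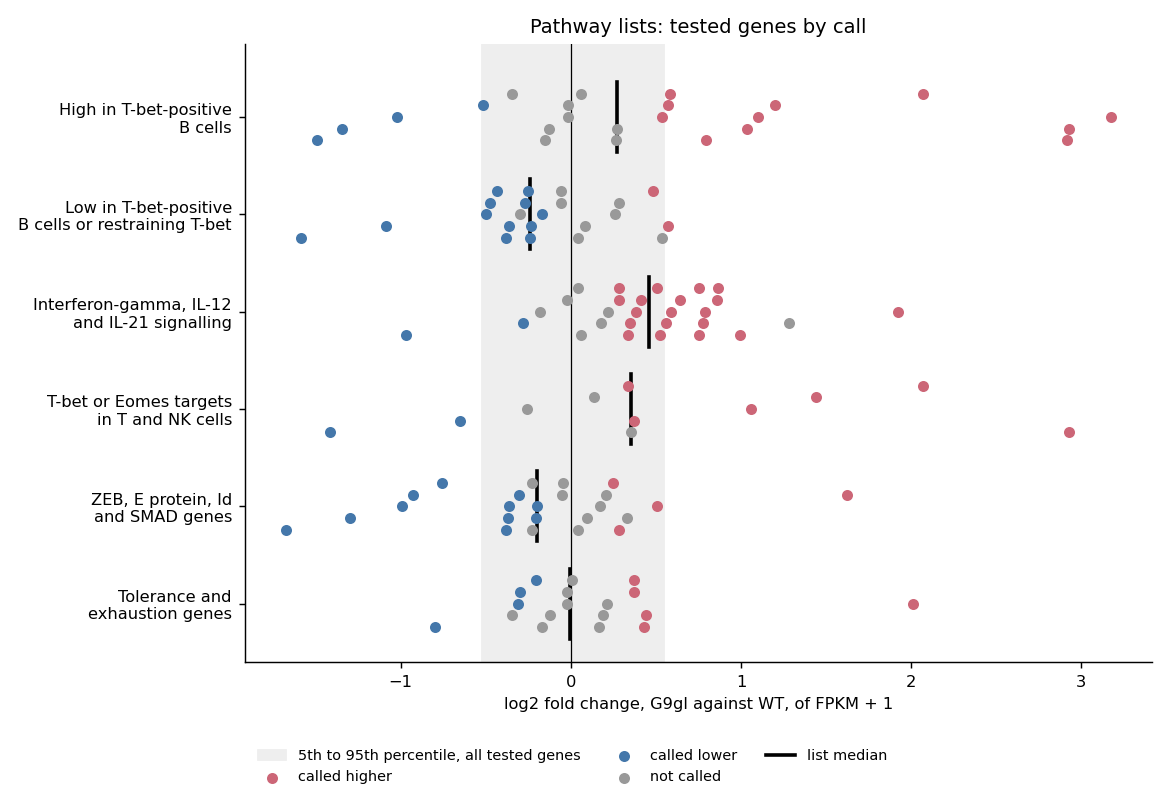
Log2 fold changes of FPKM + 1, G9gl against WT, of the tested genes in each of 6 pathway lists. Points are coloured by call, black bars are list medians and the grey band spans the 5th to 95th percentile of all tested genes, from -0.53 to 0.55. The interferon-gamma list has its median at 0.46 and the list of genes low in T-bet-positive B cells at -0.24.

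Genes that induce T-bet and direct targets of interferon-gamma were listed together. Of 35 genes on this list 28 were tested, of which 19 rose, 2 fell and 7 did not pass. The median log2 fold change was 0.46. Over all tested genes 11.8% rose and 11.6% fell. Among the tested genes of the list were 16 interferon-gamma targets, of which 15 rose and 0 fell. The other tested genes of the list rose (Stat3, Il12rb1, Il21r and Il2rg), fell (Jak2 and Stat4) or did not pass. This split into targets and other genes was not planned, and the list was written with earlier results known. Nothing is read from the split. Irf1, an early interferon-gamma target, rose from 134 ± 11.2 to 227 ± 7.85 FPKM. Socs1, the feedback inhibitor of JAK kinases, rose from 5.35 ± 0.572 to 23.0 ± 0.533 FPKM (3.79-fold, limma adjusted p 2.7e-06). The antigen processing genes Tap1 and Nlrc5 rose 1.72-fold and 1.99-fold. Type I interferon induces many of these genes too.

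The receptor side of the pathway differed from gene to gene. Jak1 had 232 ± 2.50 and 239 ± 13.8 FPKM (limma adjusted p 0.63), while Jak2, the kinase bound to the chain encoded by Ifngr2, fell from 28.01 ± 4.62 to 13.96 ± 3.47 FPKM (adjusted p 0.0035). Il21r, the interleukin-21 receptor gene, rose from 263 ± 12.9 to 343 ± 7.55 FPKM and Il12rb1 from 1.12 ± 0.246 to 2.18 ± 0.342 FPKM, a call that was lost without WT replicate 3, G9gl replicate 2 or G9gl replicate 3 (limma adjusted p 0.067, 0.068 and 0.08) and with no filter on low values (0.057). Il12rb2, the other chain of the interleukin-12 receptor, did not exceed 0.212 FPKM. Stat4, the factor downstream of interleukin-12, fell 1.21-fold, a call that was lost without WT replicate 2. Ifng itself had 0.466, 0 and 0 FPKM in WT and 0.558, 1.30 and 0.305 FPKM in G9gl, and was not tested.

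Genes described as T-bet or Eomes targets in T and NK cells were largely silent, with 11 of 25 tested. The 14 that were not tested had at most 1.94 FPKM in a library. Of the 11 tested 6 rose, 2 (Furin and Tnf) fell and 3 did not pass, while 11.8% of all tested genes rose and 11.6% fell. Among the 6, Ccl3 was below 1 FPKM in every WT library and entered the test through G9gl alone. The chemokine genes Ccl4 and Ccl3 rose from 2.38 ± 0.943 to 24.2 ± 1.79 FPKM and from 0.707 ± 0.326 to 6.12 ± 0.854 FPKM, and Prf1, which encodes perforin, from 1.73 ± 0.535 to 6.44 ± 1.57 FPKM. Furin, a proprotein convertase gene, fell from 7.70 ± 2.74 to 2.14 ± 0.270 FPKM. Without WT replicate 2, WT replicate 3 or G9gl replicate 3, 1 passed as lower. Among chemokine receptor relatives of Cxcr3, Cxcr4 rose from 18.998 ± 0.934 to 69.0 ± 7.98 FPKM and Cxcr6 had 1.23 ± 0.508 and 1.43 ± 0.285 FPKM (limma adjusted p 0.63).

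Among 24 tested genes of the ZEB, E protein, Id and SMAD group, 4 rose, 11 fell and 9 did not pass (median log2 fold change -0.20). Over all tested genes 11.8% rose and 11.6% fell. Zeb1, the paralog of Zeb2, had 6.30, 8.54 and 6.58 FPKM in WT and 5.71, 5.67 and 6.37 FPKM in G9gl (limma adjusted p 0.21). Smad4, the common partner of TGF-beta and BMP signals, fell from 23.7 ± 3.85 to 6.67 ± 0.376 FPKM, Id3, an inhibitor of E proteins, from 436 ± 33.6 to 229 ± 21.2 FPKM and Sox4 from 8.63 ± 0.655 to 2.92 ± 0.439 FPKM. Mef2c, which encodes a B cell transcription factor, rose from 126 ± 1.43 to 150.1 ± 6.67 FPKM and Irf8 from 344 ± 12.4 to 490.4 ± 17.5 FPKM. The Mef2c call was lost with values rescaled to TPM (log2 fold change 0.12, limma adjusted p 0.12). Mef2b (adjusted p 0.36), Id2 (0.086) and Tcf4 (0.76) did not pass, and Cdh1, a classic target of ZEB repressors, had at most 0.228 FPKM in a library.

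Tolerance and exhaustion genes described with Tox, Lag3 and Ndrg1 had 5 of 18 tested higher, against 11.8% of all tested genes. A further 4 were lower, against 11.6%, and 9 did not pass, with a median log2 fold change of -0.0078. Those that rose included Egr2, a factor of anergic lymphocytes, from 7.10 ± 0.542 to 31.6 ± 0.738 FPKM, the inhibitory receptor gene Btla, Cd200 and Entpd1. Those that fell were the ubiquitin ligase genes Cblb, from 22.7 ± 0.801 to 12.6 ± 0.833 FPKM, and Itch, and the diacylglycerol kinase genes Dgka and Dgkz. Pdcd1, the gene of PD-1, had at most 0.229 FPKM. With WT replicate 1, WT replicate 3, G9gl replicate 2 or G9gl replicate 3 left out, 3 passed as higher, and 2 passed as lower once WT replicate 2 was left out.

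B cell marker genes were high in all libraries, with summed levels of 8841 to 9133 FPKM over 11 genes in WT and 8125 to 8508 FPKM in G9gl. All 11 were tested, and 5 (Cd79a, Ms4a1, Pax5, Fcer2a and Cr2) passed as lower and 2 (Cd22 and Blk) as higher. Over all tested genes 11.6% passed as lower and 11.8% as higher. Other cell types express some of the 9 genes, among them macrophages (Zeb2) and T and NK cells (Tbx21, Cxcr3, Lag3, Eomes). Macrophage markers summed to 32.7 to 42.1 FPKM over 16 genes in WT and to 80.6 to 106.8 FPKM in G9gl, and 9 of the 11 tested rose. Ly6c2, which B cells also express, took part of that sum, from 12.5 ± 1.34 FPKM in WT to 38.6 ± 17.7 FPKM in G9gl. C1qb, a complement gene of tissue macrophages, rose from 2.08 ± 0.793 to 8.11 ± 0.829 FPKM, while Marco and Fcgr1 did not exceed 0.103 and 0.286 FPKM. Dendritic cell markers summed to 2.66 to 4.67 FPKM over 10 genes in WT and 7.52 to 8.397 FPKM in G9gl, and 2 of 3 tested passed as higher, of which Zbtb46 was below 1 FPKM in every WT library and entered the test through G9gl alone.

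NK cell markers summed to 3.34 to 6.28 FPKM over 12 genes in WT and 9.66 to 13.7 FPKM in G9gl. All 3 that were tested, Prf1, Klrd1 and Nkg7, passed as higher, but Klrd1 was below 1 FPKM in every WT library and entered the test through G9gl alone, while Ncr1, which defines NK cells, ranged from 0 to 0.305 FPKM in WT and from 0 to 0.159 in G9gl and Klre1 was listed at 0 in all 6. T cell markers other than Cd2, which B cells express, summed to 9.14 to 11.2 FPKM over 15 genes in WT and 12 to 13.4 FPKM in G9gl. Of the 6 T cell markers tested, Cd2 included, 0 passed in limma and 1 had an unadjusted p under 0.05. Cd3e ranged from 0.571 to 0.702 FPKM in WT and from 0.245 to 1.32 in G9gl. The part of these cells in the levels of Tbx21, Zeb2, Cxcr3 and Lag3 was not tested. Nor was their part tested for the genes of the pathway lists, among them Fcer1g, Ccl3, Ccl4 and Prf1.

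**Figure D4:**
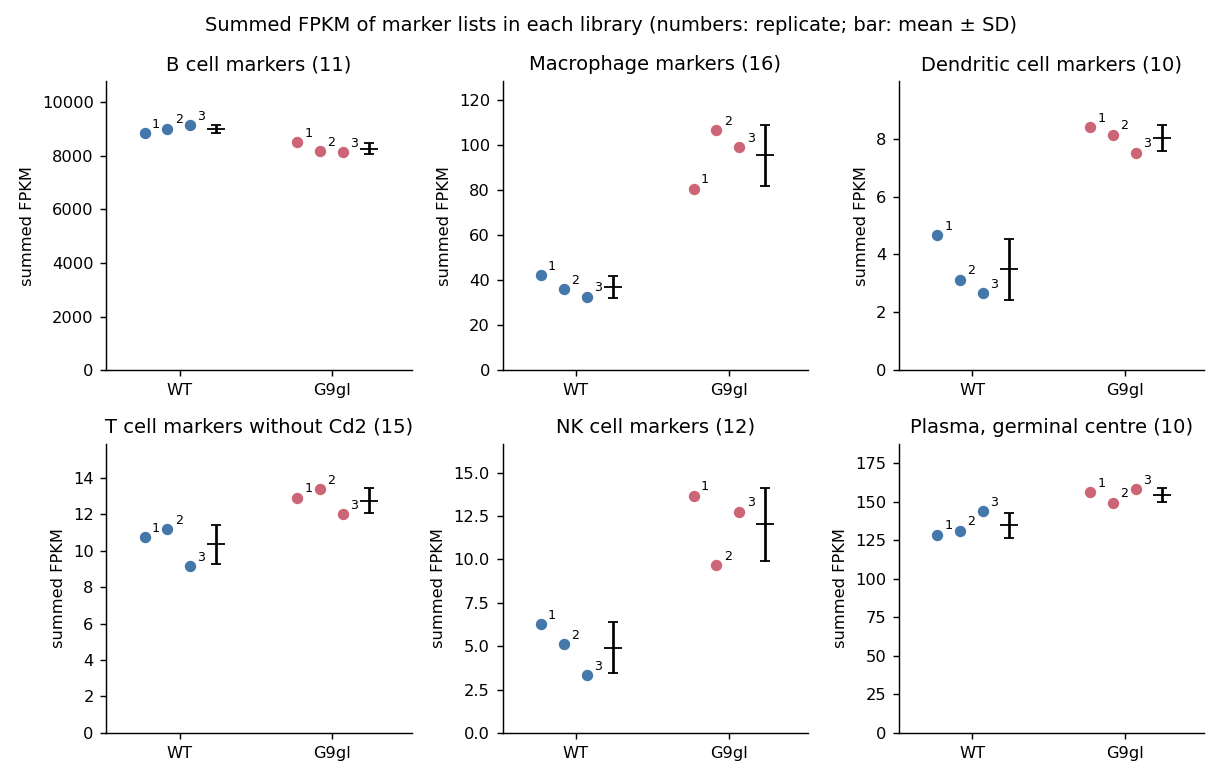
Summed FPKM of the marker genes of 6 cell types in each library, with replicate numbers beside the points, the mean ± SD as a black bar and the number of genes in each title. Macrophage, dendritic cell and NK cell markers lie higher in all G9gl libraries than in any WT library, and so do T cell markers once Cd2 is left out, as plotted. Plasma cell and germinal centre markers also lie higher in all G9gl libraries, and B cell markers lie lower in all of them.

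Across 10 other settings of the processing and 6 fits that each left out a library, the log2 fold change ranged from 2.18 to 2.88 for Tbx21, from 1.12 to 1.36 for Zeb2 and from 2.17 to 2.53 for Ndrg1. Cxcr3 ranged from 1.76 to 2.91 and Lag3 from 1.45 to 4.12, with the highest values at a pseudocount of 0.1, which weighs low levels more. With a minimum of 5 FPKM in 3 libraries, Cxcr3 and Lag3 were not tested.

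**Figure D5:**
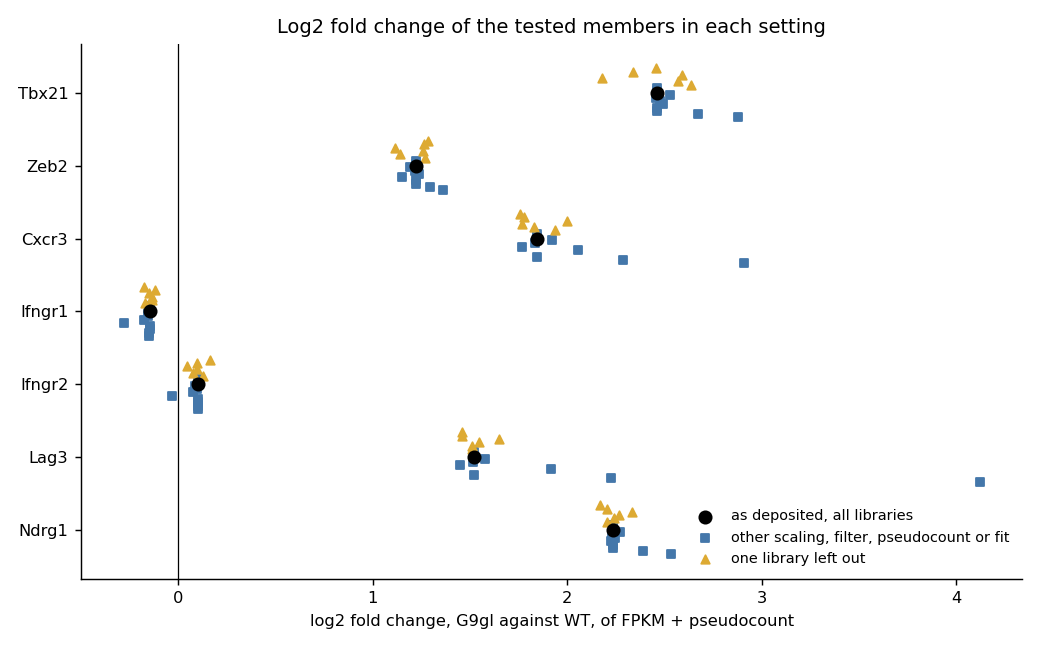
Log2 fold change, G9gl against WT, of the 7 tested members in each setting. Black circles are the values with a pseudocount of 1 and all libraries, blue squares other settings and yellow triangles fits without a library. Tbx21, Zeb2, Cxcr3, Lag3 and Ndrg1 lie at 1.12 or higher in every setting, and Ifngr1 and Ifngr2 between -0.28 and 0.17.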

How the data were processed

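RNA sequencing libraries of 3 WT and 3 G9gl samples, grouped by genotype and title in the labels, were analysed. Per the labels' protocols, RNA was extracted with Trizol and made into SMART-Seq HT cDNA and Nextera libraries, which keep no strand. The tools named in the submitters' processing notes are Cufflinks 2.2.1, TopHat2 2.0.13, SAMtools 0.1.19 and Bowtie2 2.2.3, with build mm10. The authors deposited FPKM, read as such from these tools and the values. Which annotation and scaling they used is not given in the sources used here. Because FPKM is relative to all mapped fragments, a change in abundant transcripts shifts every other gene. Immunoglobulin genes were not analysed here. The deposited values summed to 603054 to 611557 in WT and 657759 to 671533 in G9gl. Depth, estimated from the FPKM that 1 fragment gives in genes with 1 transcript of at least 1500 bases and sought between 5000000 and 15000000, was 9300000 to 10950000 fragments per library, so 1 FPKM in 2 kb rests on about 18.6 to 21.9 fragments. Fragment numbers per gene use its longest GENCODE vM21 transcript.

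Genes that reached 1 FPKM in 3 or more libraries were tested on log2(FPKM + 1) with limma 3.58.1 in R 4.3.3 (eBayes with a trend, genotype as the only term, Benjamini-Hochberg adjustment over 10122 genes, two-sided) and called at an adjusted p under 0.05. The script was tested on simulated data. The members, the 6 pathway lists and the marker lists were chosen with earlier results of these data known. Named were the 9 members, a panel, up to 4 called genes of smallest p per list, tested paralogs, the 4 genes nearest to Tbx21 and to Zeb2 (predicted genes left out) and members of small counts. A few of these genes are not reported here, though list counts include them. Other paralogs and list genes, Zeb2os, and the marker sums without Cd2 or Ly6c2, were added after the values were seen. The split of the interferon-gamma list into targets and other genes was not planned. Alternatives were pseudocounts of 0.1 and 0.5, no filter, a minimum of 5 FPKM, TPM, quantile and median-ratio scaling, library weights, robust eBayes, the replicate number as a block, and fits without each library.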

Additional observations from a re-analysis of the deposited data

How the results depend on the processing

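Over all tested genes 1191 passed as higher and 1174 as lower, and with values rescaled to TPM 730 and 2493 did, so that 22.6% of calls were higher against 50.4%. Leaving out a library gave 827 to 1136 higher and 718 to 1172 lower, the lowest number lower without WT replicate 2. The number of T and NK cell target genes lower fell to 1 without a filter, with a minimum of 5 FPKM, after quantile normalization and with robust eBayes, and was 1 to 2 with a library left out, as for the interferon-gamma list. Tolerance genes had 3 higher with TPM, and 3 to 5 higher and 2 to 3 lower with a library left out. With the replicate number as a block, 1044 genes passed as higher and 988 as lower. Same-numbered libraries correlated at -0.069 to 0.099 over genes in their deviations from the group means, and a differently numbered pair reached 0.16. With 3 libraries per group these values cannot decide whether same-numbered libraries were paired, which the labels do not state. Levels under about 0.1 FPKM rest on a few fragments. The cause of these changes was not tested.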

Other observations

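Plasma cell and germinal centre markers had 3 of 5 tested genes higher in G9gl and 1 lower, of which Jchain was below 1 FPKM in every WT library and entered the test through G9gl alone. Jchain went from 0.579 ± 0.195 to 6.23 ± 0.776 FPKM. S1pr2, a receptor that keeps cells in the germinal centre, and Sdc1, which encodes CD138, rose, and Irf4 fell. Gcsam, a germinal centre signalling adaptor gene, ranged from 0 to 0.0857 FPKM in WT and from 0.766 to 0.936 in G9gl. It lay higher in every G9gl library and was not tested, since no library reached 1 FPKM.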
